A study of Mus musculus with 16 samples.

Results

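The 64 protein-coding mouse genes whose symbols begin with Eif1 to Eif6, Eef1 or Eef2 were examined, without the Eif2ak kinases. They encode the initiation and elongation factors of cytosolic translation and several proteins that modify or restrain them. They were taken by name from the 54532 genes of the deposited table, and the set was chosen with earlier results of these data known. Expression was measured by RNA sequencing in 16 libraries whose labels name mouse hepatocytes, given as a cell line, as their source. The hepatocytes were grown alone (monoculture, 3 libraries), with cancer cells wild type for Phgdh (WT co-culture, 3 libraries) or with cancer cells knocked out for Phgdh (KO co-culture, 3 libraries). In the other groups an inhibitor of CXCR2, a chemokine receptor, was added to WT co-culture (3 libraries) or to KO co-culture (4 libraries). Phgdh codes for the enzyme that opens the route from glucose to serine, and the series asks about serine that hepatocytes supply to pancreatic cancer cells. The genotype belongs to the cancer cells, so every hepatocyte library carries the same genotype as far as the labels state. No dose, time, vehicle, clone number or culture format was given, and no group received the inhibitor in monoculture. The text that describes the series speaks of the cancer cell line HY19636 as the sequenced material, in conflict with the sample labels, which were followed. Nothing states that libraries of a group came from separate cultures, so each p-value reflects the spread among the libraries at hand, which may be technical.

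Cytosolic translation begins when eIF2, loaded with GTP and the initiator tRNA, joins the small ribosomal subunit together with eIF1, eIF1A, eIF3 and eIF5. The cap-binding complex eIF4F, made of the cap binder eIF4E, the scaffold eIF4G and the helicase eIF4A, brings in the mRNA, and the 4E-BP proteins block it when the kinase mTORC1 is inactive. Elongation then needs eEF1A, which delivers aminoacyl-tRNA and is recharged by the eEF1B subunits, and eEF2, which moves the ribosome along and is switched off by the kinase eEF2K. Many mRNAs of elongation factors and some of initiation factors are terminal oligopyrimidine (TOP) mRNAs, which start with a pyrimidine tract and whose translation follows mTORC1. The RNA levels reported here do not measure translation itself, and they cannot tell a change per cell from a change in the kinds of cells present.

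Values are FPKM (fragments per kilobase of gene and per M fragments, M being the prefix mega) as deposited. Between 15 and 21.27 M fragments were recovered per library, so that 1 fragment in a gene of 1 kb was worth 0.0457 to 0.0648 FPKM. Replicate 1 of WT co-culture stood apart from both other libraries of its group. Counts differed between it and them by 17.5 to 20.9 per degree of freedom in a chi-square statistic over genes, against 2.57 to 8.40 in all other pairs of libraries within groups. Of the calls on factor genes, 9 ended without it, and these are given with their values where the gene is described. Of 15 hepatocyte markers, 14 were in the table and 9 reached the level that was tested. Hnf4a was at a mean of 57.2 FPKM, whereas Cyp2e1, Asgr1 and Pck1 were below 0.1 FPKM. The summed hepatocyte markers ranged over 204.7 to 211.3 FPKM in monoculture, 109.6 to 111.4 in WT co-culture, 126.8 to 134.1 in KO co-culture, 705.8 to 721.3 in WT co-culture with the inhibitor and 927 to 982.8 in KO co-culture with it. The 12 markers of pancreatic cancer epithelium, of which Tff1 and Agr2 were at 0 in every library and 5 reached the level tested, summed to 149.8 to 153.4, 56.3 to 61.81, 60.54 to 64.9, 297.8 to 325.8 and 295.4 to 317 FPKM in the same order. Krt19, also a cholangiocyte marker, gave most of this sum in monoculture (96.89 FPKM) and fell to 21.97 and 23.54 in WT and KO co-culture. Krt7 and Krt20 fell there too, whereas Onecut2 (15.93 to 17.82 and 19.26) and Lgals4 (0.51 to 1.45 and 1.20) rose. The 7 cholangiocyte markers summed to 1225 to 1244 FPKM in monoculture, of which Spp1 gave 1016, and to 411.2 to 601.6 in the co-cultures. The 7 macrophage markers, with Clec4f and 4 others below 0.1 FPKM on average, summed to 114 to 117 FPKM in monoculture, 44.6 to 49.86 in both co-cultures and 103.5 to 109.5 with the inhibitor. Nearly all of this was Cd14 (means of 115.1, 44.97, 44.64, 98.7 and 103.9 FPKM in the same order of groups). Cd68 went from 0.69 in monoculture to 1.34 and 1.03 in WT and KO co-culture and to 4.96 and 4.28 with the inhibitor. Stellate, endothelial and neutrophil lists stayed below 0.5 FPKM in sum. The sums of the other lists, often carried by a few genes, moved with the same groups as the factors below, and their part in the results was not tested.

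Of the 64 genes, 58 averaged at least 1 FPKM over the 16 libraries and were tested. The 6 others were Eef1a2, the eEF1A form of muscle and neurons, Eef1akmt3, Eif2s3y, Eif4e1b, Eif4e3 and Eif4ebp3. Eif4e1b, an oocyte form of the cap binder, was at 0 in all libraries, and the other 5 stayed below 1 FPKM in every library. The levels of the tested genes spanned more than 3 orders of magnitude. In monoculture the lowest mean was 2.41 FPKM (Eif5a2), the median 37.2 and the highest 7691 (Eef1a1). Eef1a1 alone took 1.46 to 2.45% of all fragments of a library, and the 64 genes together 3.51 to 5.09%. By mean over all libraries Eef1a1 came first, followed by Eef2, Eef1g, Eef1b2, Eif5a and Eif3f.

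**Figure D1:**
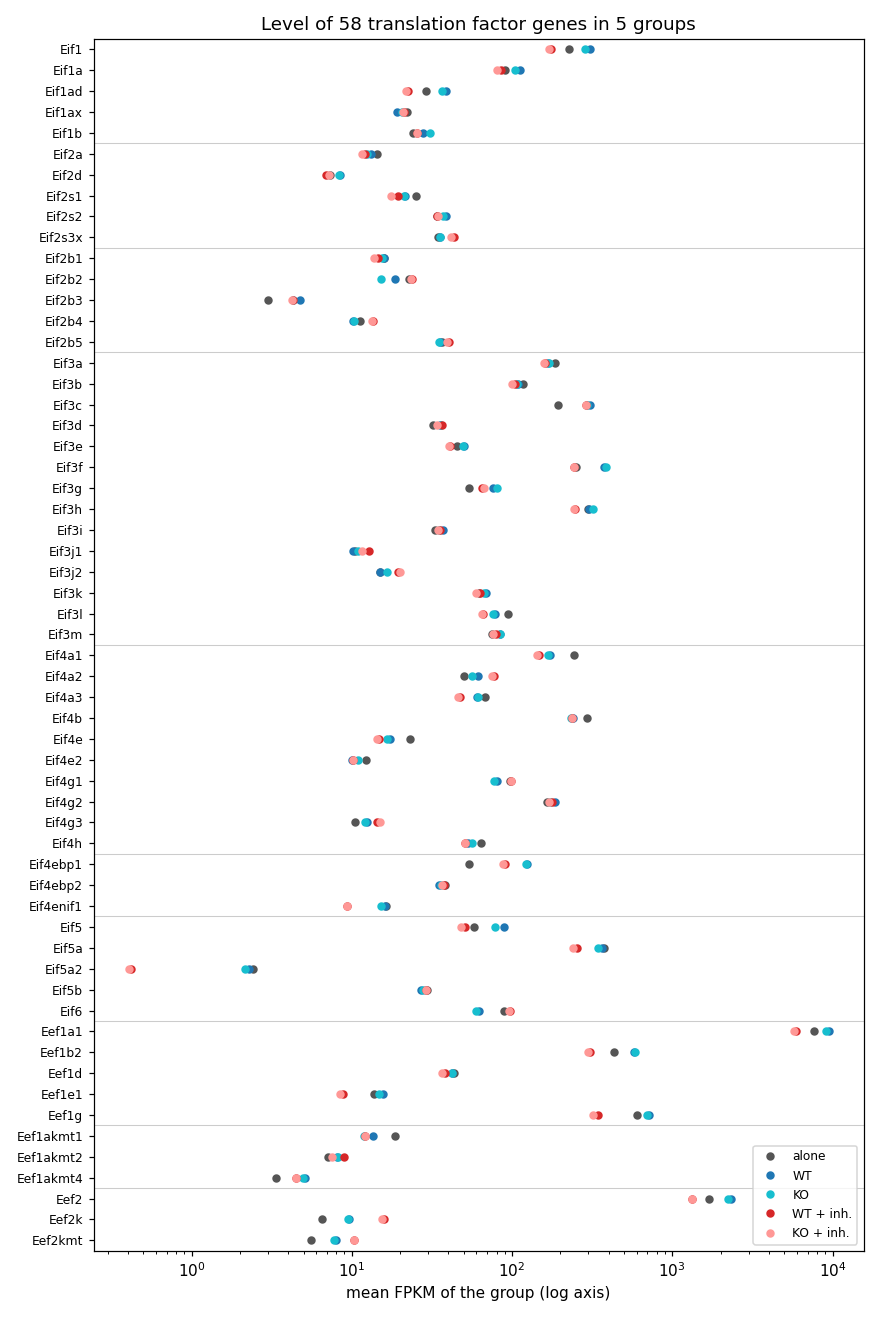
Mean FPKM of each group (log axis) for the 58 tested genes, one row per gene, ordered by role from eIF1 at the top to eEF2 at the bottom; "alone" is monoculture, WT and KO are the co-cultures and "inh." is the CXCR2 inhibitor. Eef1a1 and Eef2 stand at the top in every group (5752 to 9436 and 1327 to 2325 FPKM), and Eif5a2 falls below 1 FPKM in both groups with the inhibitor.

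Each comparison was tested with limma on log2(FPKM + 1) over 11395 genes, with a threshold of 0.05 on the adjusted p. A log2 fold change on this scale understates the change of genes at a few FPKM. In WT co-culture 24 of the 58 genes were higher and 17 lower than in monoculture. These 41 genes (70.7%) stand beside 62% of all genes called in that comparison, 30.1% of all genes higher and 31.9% lower. In KO co-culture 24 were higher and 14 lower than in monoculture, where 61.5% of all genes were called, 30.3% higher and 31.2% lower. With the inhibitor in WT co-culture, against WT co-culture, 13 were higher and 26 lower, and 66.6% of all genes were called, 33.5% higher and 33% lower. With the inhibitor in KO co-culture, 11 were higher and 29 lower, and 69.5% of all genes were called, 34.8% higher and 34.7% lower. Against monoculture, 40 genes were called in WT co-culture with the inhibitor (14 higher, 26 lower; 66.8% of all genes, 32.1% higher and 34.7% lower) and 39 in KO co-culture with it (12 higher, 27 lower; 69.4% of all genes, 33.3% higher and 36.1% lower). The share of factor genes called was thus near that of all genes in each of these comparisons. The median log2 fold change of the 58 genes was 0.098 in WT co-culture and 0.082 in KO co-culture, beside 0.0062 and 0.012 over all genes. With the inhibitor it was -0.12 in WT and -0.13 in KO co-culture, beside -0.0072 and -0.012 over all genes. The libraries of WT co-culture lay wholly above those of monoculture for 25 of the 58 genes and wholly below for 15, where 62.3% of all genes did not overlap, and those of KO co-culture for 24 and 18, where 67.1% did not. With the inhibitor the libraries lay wholly above those without it for 12 genes and below for 26 in WT co-culture (66.5% of all genes did not overlap) and for 11 and 31 in KO co-culture (70.6%). Against monoculture they lay wholly above for 15 and below for 28 in WT co-culture with the inhibitor (71.3% of all genes) and for 13 and 28 in KO co-culture with it (70.4%). Without replicate 1 of WT co-culture, 40 genes were called in WT co-culture and 40 for the inhibitor in WT co-culture.

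**Figure D2:**
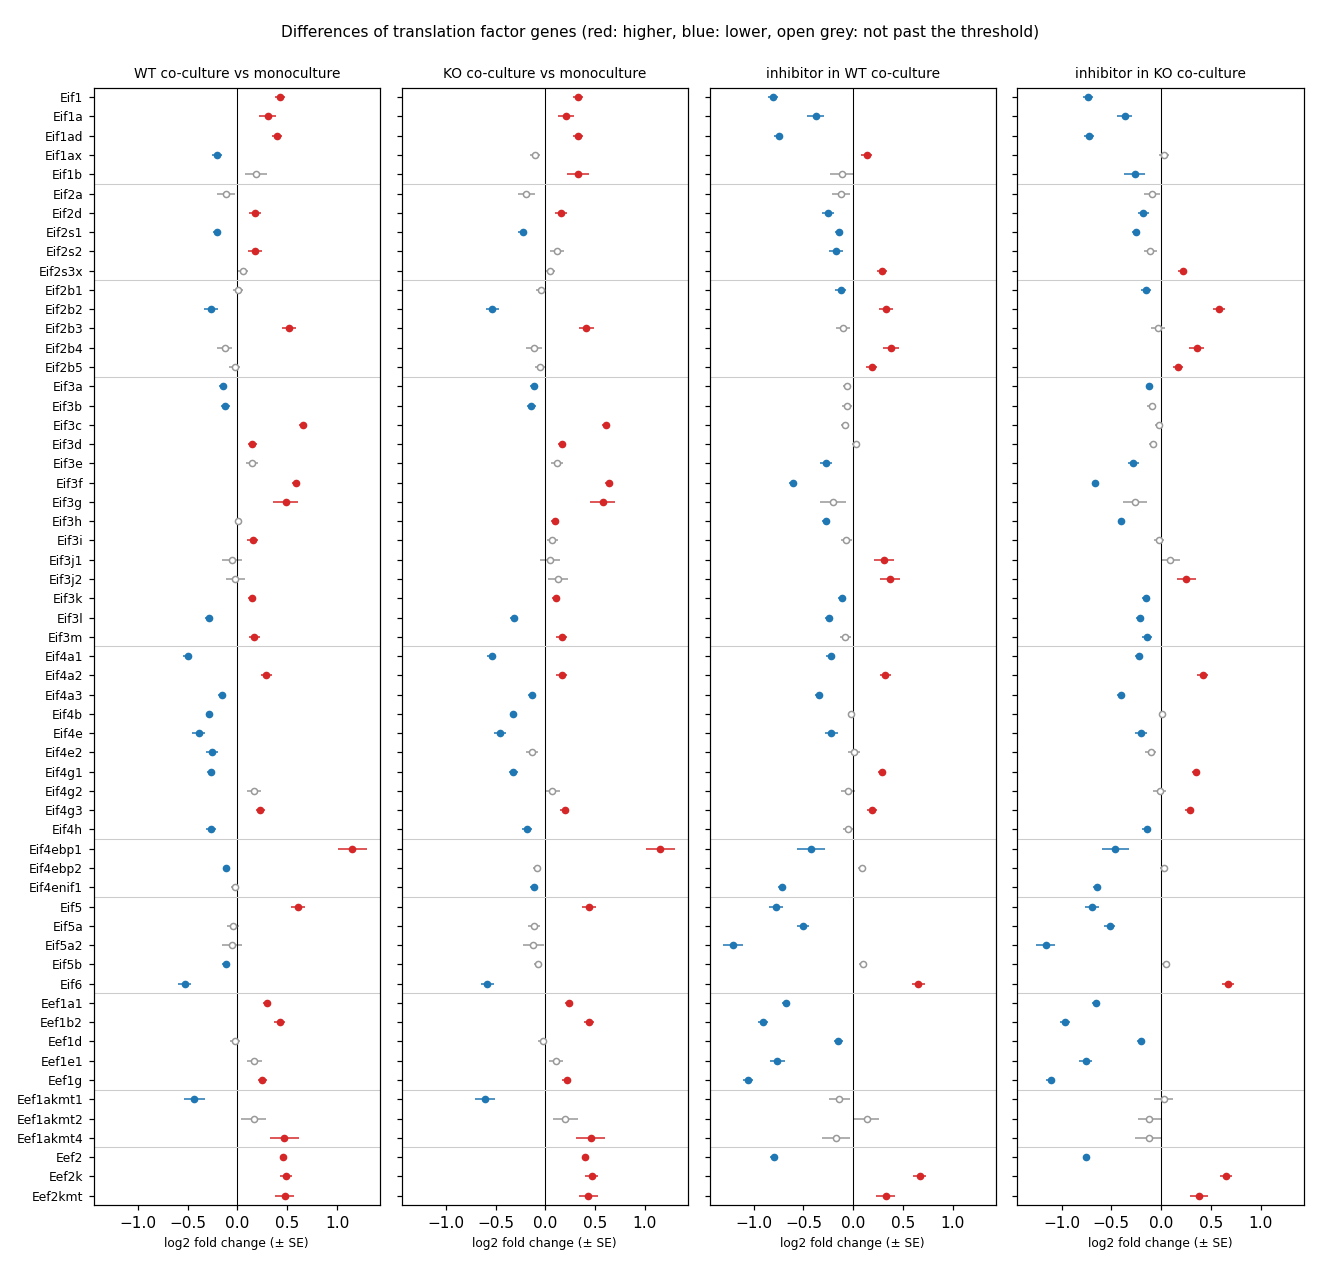
Log2 fold change (± SE) of the 58 tested genes in 4 comparisons, one row per gene and one panel per comparison; filled red and blue points passed the threshold and open grey points did not. The eEF1 subunits, Eef1e1 and Eef2 sit left of 0 in both inhibitor panels, with log2 fold changes of -0.15 to -1.11 on the deposited scale (Eef2 turned under quantile normalization and Eef1d, in WT co-culture, on the TPM scale), and Eef2k and Eif6 sit right of 0.

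Eef1a1, Eef1b2, Eef1g and Eef2 rose in both co-cultures and fell with the inhibitor, on the deposited scale. The GTPase Eef1a1 measured 7706, 7657 and 7710 FPKM in the 3 monocultures, 9896, 9195 and 9218 in WT co-culture and 9042, 8871 and 9199 in KO co-culture. With the inhibitor it measured 5978, 5808 and 5914 FPKM in WT co-culture and 5724, 5722, 5713 and 5847 in KO co-culture. Every library with the inhibitor lay below monoculture, and every co-culture library without it lay above. The rise was 0.29 ± 0.04 in WT co-culture (log2 fold change ± SE; adjusted p = 1.75e-05) and 0.23 ± 0.04 in KO co-culture (adjusted p = 0.000166). With the inhibitor Eef1a1 fell by 0.68 ± 0.04 (adjusted p = 1.66e-09) in WT and by 0.65 ± 0.04 (adjusted p = 1.06e-09) in KO co-culture.

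Eef2, the translocase, showed the same order of groups on the deposited scale. It measured 1726, 1673 and 1678 FPKM in monoculture, 2265, 2397 and 2312 in WT co-culture, 2198, 2269 and 2243 in KO co-culture, 1313, 1350 and 1340 with the inhibitor in WT and 1325, 1347, 1331 and 1305 with it in KO co-culture. It rose by 0.46 ± 0.03 in WT co-culture (adjusted p = 2.37e-08) and fell by 0.80 ± 0.03 with the inhibitor there (adjusted p = 4.01e-11). In KO co-culture the values were 0.40 ± 0.03 (adjusted p = 1.04e-07) and -0.75 ± 0.03 (adjusted p = 3e-11). Under quantile normalization neither Eef1a1 nor Eef2 passed the threshold in these 4 comparisons, and the sign of the inhibitor difference of Eef2 turned (0.0084 and 0.041). Both are among the 50 most abundant genes. That scaling sets values by rank, so at the top of the range it can hide a change in level and cannot decide the matter. Against monoculture, Eef2 with the inhibitor was lower on the deposited scale (-0.34 in WT and -0.35 in KO co-culture) and higher under quantile normalization (0.12, adjusted p = 0.108, and 0.18, adjusted p = 0.0159). Without a filter on low values Eef1a1 no longer passed in either co-culture.

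Of the eEF1B subunits, which recharge eEF1A with GTP, Eef1g and Eef1b2 had larger log2 falls with the inhibitor than Eef1a1, and Eef1d a smaller one. Eef1g, the structural subunit, measured 659.3, 745.1 and 732.3 FPKM in WT co-culture and 337.8, 345.5 and 341.8 with the inhibitor, a change of -1.06 ± 0.05 (adjusted p = 8.48e-11). In KO co-culture it went from 680.4, 723.5 and 678.6 to 331.1, 321.7, 318 and 316.4 FPKM, a change of -1.11 ± 0.05 (adjusted p = 2.02e-11). Within a library the ratio of 2 genes does not change when all values of that library are multiplied by 1 factor. Per 100 FPKM of Eef1a1 there were 7.49 to 8.14 FPKM of Eef1g in monoculture, 6.66 to 8.10 in WT co-culture and 7.38 to 8.16 in KO co-culture, but 5.65 to 5.95 and 5.41 to 5.78 with the inhibitor. The ratio was lower in all 7 libraries with the inhibitor than in any of the 9 without. The pseudogene Gm4366 carries sequence nearly identical to Eef1g and averaged 406 FPKM, and 40.3 fragments per 100 of Eef1g lay in such copies. It moved in the same directions (0.17 and 0.18 in co-culture, -0.96 and -1.09 with the inhibitor), so the level of Eef1g is uncertain by how shared reads were assigned. Eef1b2, an exchange factor subunit, was higher in both co-cultures by 0.42 ± 0.05 and 0.44 ± 0.05 (adjusted p = 6.52e-06 and 4.56e-06), with means of 430.3 ± 12.8 (SD, n = 3) FPKM in monoculture and 578.3 ± 43.3 and 584 ± 18.4 in WT and KO co-culture. With the inhibitor it averaged 307.4 ± 11.4 and 298.2 ± 10.3 FPKM, changes of -0.91 ± 0.05 and -0.97 ± 0.05. Eef1d, another exchange factor subunit, did not pass the threshold in either co-culture (both -0.03 ± 0.05) and was lower with the inhibitor by 0.15 ± 0.05 and 0.20 ± 0.04, calls that ended on the TPM scale (with a turn to 0.0034 in WT co-culture) and, in WT co-culture, also without its replicate 2. Eef1e1, a component of the aminoacyl-tRNA synthetase complex, fell from 14.32, 15.08 and 17.38 to 8.94, 8.34 and 9.01 FPKM in WT co-culture (-0.76 ± 0.07), and the change was also -0.76 ± 0.07 in KO co-culture. The 4 subunits Eef1a1, Eef1b2, Eef1d and Eef1g, and Eef1e1, were thus lower with the inhibitor in both co-cultures on the deposited scale.

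**Figure D3:**
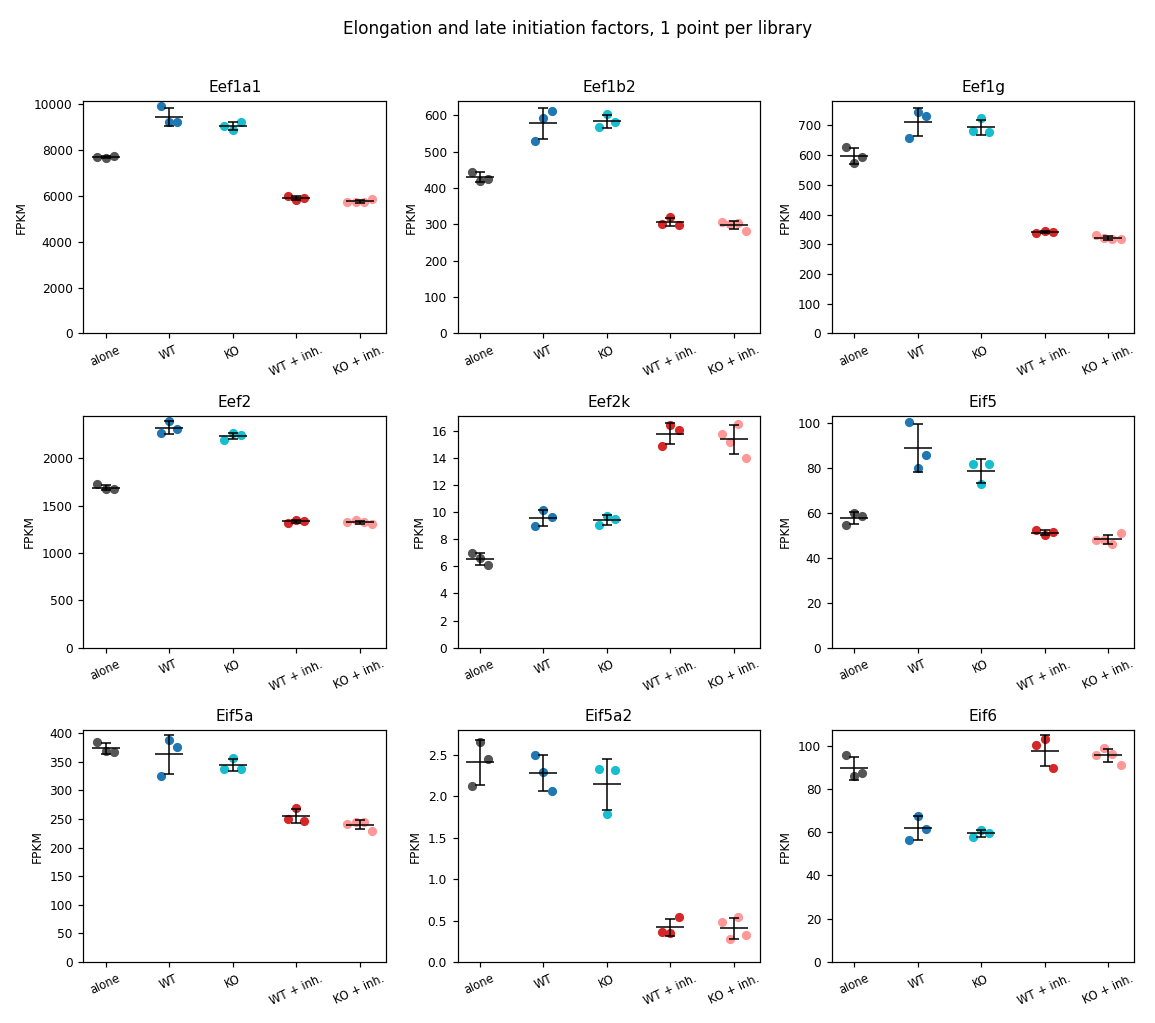
FPKM of 9 elongation and late initiation factors, 1 point per library in 5 groups, with the mean and SD in black; axes start at 0. Eef1a1, Eef1b2, Eef1g and Eef2 are lowest in both groups with the inhibitor, Eef2k is highest there, and Eif6 is lowest in both co-cultures without it.

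The regulators of eEF2 were, like Eef2, higher in co-culture, and they were higher again with the inhibitor, where Eef2 was lower on the deposited scale but not under quantile normalization. Eef2k, the kinase that phosphorylates and inactivates eEF2, measured 6.95, 6.60 and 6.07 FPKM in monoculture, 8.96, 10.1 and 9.64 in WT and 9.01, 9.72 and 9.48 in KO co-culture, and 14.9, 16.4 and 16.1 and then 15.7, 15.1, 16.5 and 14.0 with the inhibitor. It rose both in co-culture (0.49 ± 0.06 and 0.47 ± 0.06; adjusted p = 1.04e-05 and 1.7e-05) and again with the inhibitor (0.67 ± 0.06 and 0.65 ± 0.06; adjusted p = 3.41e-07 and 1.92e-07). Against Eef2 within the same library, Eef2k stood at 0.361 to 0.403 FPKM per 100 in monoculture, 0.396 to 0.422 in WT and 0.410 to 0.429 in KO co-culture, and 1.13 to 1.21 and 1.07 to 1.24 with the inhibitor. Eef2kmt, a methyltransferase of eEF2, averaged 5.53 ± 1.06 FPKM in monoculture, 8.02 ± 0.80 and 7.73 ± 0.31 in WT and KO co-culture, and 10.3 ± 0.70 and 10.3 ± 0.50 with the inhibitor. It passed the threshold in all 4 comparisons, but its exons overlap those of Alg1 on the opposite strand over 17.6% of their length, and counting by strand was not stated. Alg1 was likewise higher in co-culture (0.53 and 0.58) and, unlike Eef2kmt, lower with the inhibitor (-0.29 and -0.37). Of the eEF1A methyltransferases, Eef1akmt1 was lower in both co-cultures (-0.43 ± 0.10 and -0.60 ± 0.10), Eef1akmt4 was higher (0.47 ± 0.14 and 0.45 ± 0.14; the latter call ended without replicate 2 of KO co-culture), and Eef1akmt2 did not pass (0.16 ± 0.12 and 0.20 ± 0.12). None of these 3 passed with the inhibitor. The exons of Eef1akmt4 overlap those of Alg3 on the opposite strand over 8.86% of their length. Alg3 was likewise higher in WT and KO co-culture (0.79 and 0.67), so the level of Eef1akmt4 is uncertain by how shared reads were assigned.

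The 9 genes known as TOP mRNAs (Eef1a1, Eef1b2, Eef1d, Eef1g, Eef2, Eif3e, Eif3f, Eif3h and Eif4b) were counted apart. With the inhibitor 8 of the 9 were lower in each co-culture on the deposited scale, beside 33% of all genes in WT and 34.7% in KO co-culture. Eif4b did not pass (-0.02 ± 0.03 and 0.01 ± 0.03). Of the 9, only Eef1b2, Eef1g, Eif3f and Eif3h passed as lower under all 4 other scalings in both co-cultures. Eef2 turned under quantile normalization and Eef1d, in WT co-culture, on the TPM scale. For Eef1a1 and Eef2, both among the 50 most abundant genes, quantile normalization cannot decide, so this count does not speak against them. On the deposited scale the median log2 fold change of the 9 was -0.61 in WT and -0.65 in KO co-culture. For the 49 other factor genes it was -0.085 and -0.11, and 13 and 11 of them were higher and 18 and 21 lower. In WT and KO co-culture without the inhibitor 5 and 6 of the 9 were higher, beside 30.1% and 30.3% of all genes, and Eif4b was lower (-0.29 ± 0.03 and -0.33 ± 0.03). The RefSeq promoter table (GRCm38.p6) matched 5 of the 9, and 25 bases on each side of the annotated start are shown for these because a TOP mRNA is defined by its first bases. Capitals mark the longest run of pyrimidines that begins with C, and the start lies after base 25. The windows lie on the strand of the gene at chr9:78481700-78481749 (minus) for Eef1a1, chr10:81176606-81176655 (plus) for Eef2, chr1:63176806-63176855 (plus) for Eef1b2, chr7:108934390-108934439 (plus) for Eif3f and chr15:102073748-102073797 (plus) for Eif4b.
Eef1a1: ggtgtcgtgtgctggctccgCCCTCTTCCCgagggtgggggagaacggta
Eef2: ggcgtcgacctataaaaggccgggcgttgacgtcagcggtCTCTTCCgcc
Eef1b2: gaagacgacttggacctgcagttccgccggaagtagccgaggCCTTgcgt
Eif3f: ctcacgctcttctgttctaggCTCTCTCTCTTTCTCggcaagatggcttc
Eif4b: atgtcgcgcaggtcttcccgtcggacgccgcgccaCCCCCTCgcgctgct
The run was 15 bases long in Eif3f and 10 in Eef1a1, both spanning the annotated start, 7 in Eef2 and Eif4b, and 4 in Eef1b2. A run of at least 8 bases was present in 2 of these 5 windows, in 25.8% of the 62 windows of factor genes and in 15.5% of 32851 windows in the table. A C with at least 4 more pyrimidines after it stood at the annotated start itself in 3.23% of the windows of factor genes, those of Eif3f and Eif2s3x, and in 2.51% of the table. Eif2s3x is not among the 9 and was higher with the inhibitor (0.29 and 0.22). An annotated start can differ from the start used in these cells.

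Of the 5 genes of eIF1 and eIF1A, 3 were higher and 1 lower in WT co-culture and 4 were higher in KO co-culture. With the inhibitor 3 were lower and 1 higher in WT and 4 were lower in KO co-culture. Over all genes, 30.1% were higher and 31.9% lower in WT co-culture, and 30.3% and 31.2% in KO co-culture. With the inhibitor 33.5% were higher and 33% lower in WT, and 34.8% and 34.7% in KO co-culture. Eif1, which keeps the scanning ribosome open until it meets a start codon, measured 219.9, 234.1 and 226.6 FPKM in monoculture, 316.9, 288.1 and 314.1 in WT co-culture and 176.3, 180.6 and 166.6 with the inhibitor there. The changes were 0.43 ± 0.05 (adjusted p = 2.95e-06) and -0.81 ± 0.05 (adjusted p = 2.34e-09), and in KO co-culture 0.33 ± 0.05 and -0.73 ± 0.05. Sequences at least 95% identical over 200 bases were found in 16 other genes, 15 of them pseudogenes, which together held 13.5 fragments per 100 of Eif1, so its level is uncertain by the way shared reads were assigned. The gene that is no pseudogene, Emd, did not pass in co-culture (-0.05 and -0.12) and was higher with the inhibitor (0.78 and 0.86). Of the 2 genes of eIF1A, which binds the ribosomal A site, Eif1a was higher in co-culture (0.30 ± 0.08 and 0.21 ± 0.08) and lower with the inhibitor (-0.38 ± 0.08 and -0.37 ± 0.08, calls that ended on the TPM scale). The call in KO co-culture ended on leaving out any of 4 libraries, which were monoculture 1 and 3 and KO co-culture 1 and 3. Eif1ax was lower in WT co-culture (-0.20 ± 0.05) and higher with the inhibitor there (0.13 ± 0.05, adjusted p = 0.0352, a call lost without any of 4 libraries, among them replicate 1 of WT co-culture, without which it was 0.12 with adjusted p = 0.0789), and did not pass in KO co-culture (-0.10 ± 0.05 and 0.03 ± 0.05). Eif1a was at 132.6 FPKM in replicate 1 of WT co-culture and at 99.1 and 104.7 in the others, and without that library its changes there were 0.18 and -0.25. Eif1b, a paralog of Eif1, was higher in KO co-culture (0.33 ± 0.11) and lower with the inhibitor there (-0.27 ± 0.10), did not pass in WT co-culture (0.19 ± 0.11 and -0.12 ± 0.11), and lost its calls on leaving out replicate 2 or 3 of KO co-culture. Eif1ad, an eIF1A-like protein, rose by 0.39 ± 0.05 and 0.32 ± 0.05 and fell by 0.75 ± 0.05 and 0.72 ± 0.05. Its exons overlap Banf1 on the opposite strand over 15.3% of their length, and Banf1 also fell with the inhibitor, by 0.74 and 0.78.

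The subunits of eIF2, which carries the initiator tRNA, differed by at most 0.29 on the log2 scale, in both directions, between co-culture and monoculture and with the inhibitor within co-culture. Eif2s1, the alpha subunit that stress kinases phosphorylate, measured 24.95, 25.55 and 24.56 FPKM in monoculture, 21.42, 21.45 and 21.90 in WT and 21.25, 20.51 and 21.84 in KO co-culture, and 19.94, 19.83 and 18.70 and then 18.59, 16.82, 17.15 and 17.88 with the inhibitor. It fell at each step by 0.14 to 0.26, and the fall with the inhibitor in WT co-culture turned to 0.01 on the TPM scale. Eif2s2, the beta subunit, was higher in WT co-culture (0.18 ± 0.07, adjusted p = 0.0415) and lower with the inhibitor there (-0.18 ± 0.07, adjusted p = 0.0419). Without replicate 1 of WT co-culture these were 0.10 (adjusted p = 0.193) and -0.099 (adjusted p = 0.2), and neither KO comparison passed (0.11 ± 0.07 and -0.11 ± 0.07). The near-identical Gm9892 held 11.9 fragments per 100 of Eif2s2. Eif2s3x, the gamma subunit, did not pass in co-culture (0.05 ± 0.05 and 0.04 ± 0.05) and rose with the inhibitor by 0.29 ± 0.05 and 0.22 ± 0.05 (adjusted p = 0.000105 and 0.000602). Of the factors that can deliver tRNA outside eIF2, Eif2d rose in both co-cultures (0.18 ± 0.06 and 0.15 ± 0.06) and fell with the inhibitor (-0.25 ± 0.06 and -0.18 ± 0.06). Its call in WT co-culture ended on leaving out replicate 2 of monoculture or replicate 1 (0.16, adjusted p = 0.0575) or 2 of WT co-culture, and its call in KO co-culture on leaving out any library of monoculture or KO co-culture. On the TPM scale its inhibitor calls and the KO co-culture call ended. Eif2a did not pass in any of these comparisons (-0.19 to -0.09).

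The 5 subunits of eIF2B, the exchange factor that reloads eIF2 with GTP, split. Eif2b2 measured 23.6, 21.7 and 22.5 FPKM in monoculture, 18.7, 17.1 and 20.2 in WT co-culture, 15.2, 15.4 and 15.4 in KO co-culture, 23.8, 25.7 and 21.6 with the inhibitor in WT and 24.6, 23.6, 23.9 and 21.7 with it in KO co-culture. It was the one factor gene that passed between KO and WT co-culture (-0.27 ± 0.07, adjusted p = 0.0462), where 2.99% of all genes were called. That call lies close to the threshold, and the adjusted p reached 0.277 under the alternatives tried and 0.0818 (-0.26) without replicate 1 of WT co-culture. Against monoculture it fell by 0.27 ± 0.07 and 0.53 ± 0.07, and with the inhibitor it rose by 0.33 ± 0.07 and 0.58 ± 0.06. Eif2b3, which forms the catalytic part with Eif2b5, was higher in both co-cultures (2.963, 3.182 and 2.857 FPKM in monoculture against 4.486, 5.17 and 4.501 in WT and 4.359, 4.301 and 4.305 in KO co-culture) and did not pass with the inhibitor (-0.11 ± 0.07 and -0.03 ± 0.07). Eif2b4, a regulatory subunit, and Eif2b5 did not pass in co-culture and rose with the inhibitor by 0.36 to 0.38 and by 0.17 to 0.19. The exons of Eif2b4 overlap those of Snx17 on the opposite strand over 7.85% of their length. Snx17 was higher in co-culture (0.16 and 0.12), unlike Eif2b4, and also rose with the inhibitor (0.21 in both). The level of Eif2b4 is thus uncertain by how shared reads were assigned. Eif2b1, the regulatory alpha subunit, was lower with the inhibitor by 0.13 ± 0.05 and 0.15 ± 0.05, differences that turned in sign on the TPM scale (0.022 and 0.0017). In WT co-culture the value was -0.064 (adjusted p = 0.208) without its replicate 1, and the call also ended without replicate 2 or 3 of the inhibitor group; in KO co-culture it ended without replicate 3 (adjusted p = 0.0536).

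Among the 9 tested genes of the eIF2 kinases and the eIF2 phosphatase, 3 were higher and 2 lower in WT co-culture and 5 higher and 3 lower with the inhibitor there. The shares of all genes were 30.1% higher and 31.9% lower in WT co-culture, and 33.5% and 33% with the inhibitor there. Ppp1r15a, which directs the phosphatase to eIF2, went from a mean of 29.2 FPKM in monoculture to 96.5 in WT co-culture (1.68 ± 0.10, adjusted p = 2.36e-09) and was lower with the inhibitor by 1.60 ± 0.10. Dnajc3, an inhibitor of the ER kinase of eIF2, went from 30.5 to 96.4 FPKM (1.62 ± 0.06) and was lower with the inhibitor by 0.74 ± 0.06. Eif2ak2, the kinase activated by double-stranded RNA, was lower in WT co-culture (-0.49 ± 0.06) and higher with the inhibitor (1.72 ± 0.06, adjusted p = 9.65e-12), and in KO co-culture the same differences were -0.39 ± 0.06 and 1.55 ± 0.06.

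The scaffold eIF3 is built from 13 kinds of subunit, here given by 14 genes because eIF3j has 2. Their means ran from 10.5 FPKM (Eif3j1) to 299.2 (Eif3h) in monoculture. In each co-culture 7 were higher and 3 lower than in monoculture, where 30.1% of all genes were higher and 31.9% lower in WT and 30.3% and 31.2% in KO co-culture. Without replicate 1 of WT co-culture, the WT calls of Eif3m (0.17, then 0.10 with adjusted p = 0.0532), Eif3i (0.15, then 0.11 with adjusted p = 0.108) and Eif3b (-0.12, then -0.056 with adjusted p = 0.19) ended. With the inhibitor 2 were higher and 5 lower in WT co-culture, and 1 was higher and 7 lower in KO co-culture. All genes then stood at 33.5% higher and 33% lower in WT, and 34.8% and 34.7% in KO co-culture. Eif3c, a core subunit, measured 194.3, 197.2 and 188.1 FPKM in monoculture and 328, 294.4 and 296 in WT and 293.2, 291.1 and 300.9 in KO co-culture. It rose by 0.66 ± 0.04 (adjusted p = 1.62e-09) and 0.61 ± 0.04 (adjusted p = 4.21e-09), and it did not pass with the inhibitor (-0.08 ± 0.04 and -0.03 ± 0.04; 287.2 to 291.7 FPKM in those 7 libraries). Eif3a, the other large core subunit, was lower in co-culture by 0.15 ± 0.03 and 0.12 ± 0.03, with a turn in sign under quantile normalization (0.055 and 0.064). Per 100 FPKM of Eif3a there were 100.48 to 107.8 FPKM of Eif3c in monoculture and 169.2 to 194.2 in the 13 co-culture libraries. Eif3f, which like Eif3h holds an MPN domain, rose by 0.58 ± 0.04 and 0.63 ± 0.04 and fell with the inhibitor by 0.61 ± 0.04 and 0.66 ± 0.04 (adjusted p = 3.33e-09 and 5.2e-10). It measured 257.3, 241.5 and 248.6 FPKM in monoculture, 356.2, 386 and 379 in WT co-culture and 242.8, 249.3 and 242.1 with the inhibitor, so the libraries with the inhibitor overlapped monoculture, and WT co-culture without it lay above both. Eif3g, an RNA-binding subunit, was at 57.18 FPKM in replicate 1 of WT co-culture and at 87.25 and 85.35 in the others, against 50.04 to 58.38 in monoculture. It passed in both co-cultures (0.48 ± 0.13 and 0.57 ± 0.13), and without that library the WT value was 0.68. Eif3l fell in co-culture (-0.28 ± 0.04 and -0.32 ± 0.04) and fell again with the inhibitor (-0.24 ± 0.04 and -0.22 ± 0.03, the latter call lost on the TPM scale). Eif3h did not pass in WT co-culture (0.01 ± 0.04), was higher in KO co-culture by 0.10 ± 0.04 (adjusted p = 0.0382, lost on leaving out any of 4 libraries) and fell with the inhibitor by 0.28 ± 0.04 and 0.40 ± 0.03. Eif3j1 and Eif3j2 share near-identical sequence, so their separate values are uncertain.

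Of the genes for parts of eIF4F, Eif4e, Eif4a1 and Eif4g1 were lower in both co-cultures, and Eif4a2 and Eif4g3 were higher. Of the 10 tested genes listed by name as eIF4F and its helpers, 2 were higher and 7 lower in WT co-culture, and 2 were higher and 6 lower in KO co-culture. This list also holds Eif4a3, Eif4e2, Eif4b and Eif4h. Beside it, 30.1% of all genes were higher and 31.9% lower in WT co-culture, and 30.3% and 31.2% in KO co-culture. Eif4e, the cap binder, measured 22.2, 23.3 and 23.6 FPKM in monoculture, 18.8, 16.7 and 16.7 in WT co-culture, 17.1, 15.4 and 17.2 in KO co-culture, 15.2, 13.5 and 15.7 with the inhibitor in WT and 14.74, 13.65, 13.97 and 14.82 with it in KO co-culture. It fell in co-culture by 0.39 ± 0.06 and 0.45 ± 0.06 (adjusted p = 8.77e-05 and 1.99e-05). The further falls with the inhibitor, 0.22 ± 0.06 and 0.20 ± 0.06, did not pass on the TPM scale. Eif4g1, the main scaffold, fell in co-culture (96.3, 97.6 and 95.5 FPKM against 75.7, 83.2 and 81.8 in WT and 76.4, 78.3 and 76.5 in KO) and rose with the inhibitor to 95.6, 99.9 and 98.8 FPKM in WT and 99.3, 102.1, 99.1 and 92.8 in KO co-culture. The changes were -0.26 ± 0.04 and -0.32 ± 0.04, then 0.29 ± 0.04 and 0.35 ± 0.04. Its paralog Eif4g3 rose at each of these steps by 0.19 to 0.29. Eif4g2, which lacks the eIF4E binding site, did not pass in any of the 4 comparisons (-0.05 to 0.16). Eif4b and Eif4h, which help the helicase, were lower in co-culture by 0.29 to 0.33 and by 0.18 to 0.27.

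The paralogous helicases moved apart. Eif4a1 fell from 244.6, 237.5 and 247.6 FPKM in monoculture to 161.8, 175.1 and 178.5 in WT and 167.3, 169.7 and 164.7 in KO co-culture, changes of -0.50 ± 0.04 and -0.54 ± 0.04 (adjusted p = 1.34e-07 and 6e-08). Eif4a2 rose from 49.6, 48.8 and 51.7 to 67.6, 56.6 and 60.6 FPKM in WT co-culture (0.29 ± 0.06, adjusted p = 0.000402) and to 56.03, 54.8 and 57.89 in KO co-culture (0.17 ± 0.06, adjusted p = 0.0193, a call lost on the TPM scale and without monoculture 1, monoculture 2 or KO co-culture 3). With the inhibitor Eif4a2 rose to 79.86, 72.92 and 78.65 FPKM (0.32 ± 0.06) and to 73.6, 74.1, 75.3 and 78.4 FPKM (0.42 ± 0.05). The fall of Eif4a1 with the inhibitor (-0.23 ± 0.04 and -0.22 ± 0.04) ended on the TPM scale. Within libraries Eif4a2 stood at 20.3 to 20.9 FPKM per 100 of Eif4a1 in monoculture, 32.3 to 41.8 in WT co-culture, 32.3 to 35.2 in KO co-culture, 47.0 to 56.5 with the inhibitor in WT and 51.2 to 55.5 with it in KO co-culture. The ratios of monoculture, of both co-cultures and of both groups with the inhibitor did not overlap. The value of 41.8 was replicate 1 of WT co-culture. The pseudogene Eif4a-ps4, nearly identical to Eif4a1, averaged 150.7 FPKM and held most of the 24.5 fragments per 100 of Eif4a1 found in such copies, and it was lower in co-culture too (-0.64 and -0.73). The level of Eif4a1 is therefore uncertain by the assignment of shared reads. Eif4a3, the helicase of the exon junction complex, fell at each step, by 0.15 and 0.14 in co-culture and by 0.34 and 0.40 with the inhibitor.

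**Figure D4:**
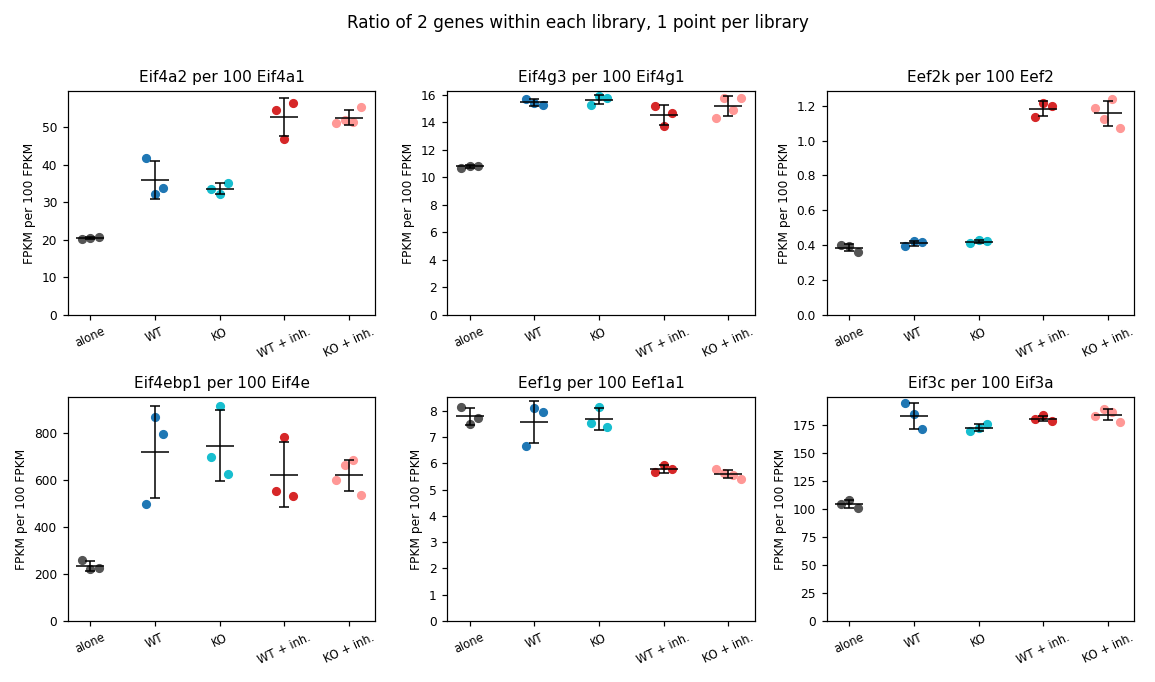
Ratio of 2 genes within each library, in FPKM of the first per 100 FPKM of the second, 1 point per library in 5 groups, with the mean and SD in black; axes start at 0. Eif4a2 per 100 Eif4a1 increases from about 20.6 in monoculture to 52.6 in KO co-culture with the inhibitor (means), and Eef2k per 100 Eef2 is above 1.07 in the 7 libraries with the inhibitor and below 0.43 in the other 9.

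Eif4ebp1, the repressor that competes with eIF4G for eIF4E, had the largest rise among the 58 genes in both co-cultures. It measured 57.5, 51.1 and 53.6 FPKM in monoculture, 93.7, 144.5 and 132.2 in WT co-culture, 119.2, 140.5 and 107.2 in KO co-culture, 83.9, 105.7 and 83.2 with the inhibitor in WT and 88.2, 90.2, 95.2 and 79.5 with it in KO co-culture. The rise was 1.15 ± 0.14 (adjusted p = 6.12e-06) in WT co-culture, 1.34 without its replicate 1, and 1.16 ± 0.14 (adjusted p = 6.31e-06) in KO co-culture. With the inhibitor it was lower by 0.42 ± 0.14 (adjusted p = 0.0175), or by 0.61 without replicate 1, and by 0.46 ± 0.13 (adjusted p = 0.00701). The first of these calls ended on the TPM scale and on leaving out replicate 2 or 3 of WT co-culture or replicate 1 or 3 of WT co-culture with the inhibitor (-0.30 to -0.37), and levels with the inhibitor stayed above monoculture (0.73 and 0.70 on the log2 scale). Its paralog Eif4ebp2 was lower in WT co-culture by 0.11 ± 0.04 (a call lost under all 4 other scalings), did not pass in KO co-culture (-0.08 ± 0.04), and did not pass with the inhibitor (0.09 ± 0.04 and 0.03 ± 0.04). Per 100 FPKM of Eif4e there were 219.3 to 258.7 FPKM of Eif4ebp1 in monoculture and 497.5 to 914.7 in the 13 co-culture libraries. Eif4enif1, which carries eIF4E into the nucleus, measured 16.9, 15.5 and 15.9 FPKM in WT co-culture and 9.46, 9.45 and 9.23 with the inhibitor (-0.72 ± 0.04, adjusted p = 3.43e-10), and it fell by 0.64 ± 0.03 in KO co-culture.

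Of 18 genes of mTORC1 and of eIF4E control, all tested, 7 were higher and 4 lower in each co-culture, 7 higher and 9 lower with the inhibitor in WT and 9 higher and 9 lower with it in KO co-culture. In the same order, 30.1%, 30.3%, 33.5% and 34.8% of all genes were higher in WT co-culture, in KO co-culture and with the inhibitor in each. The shares lower were 31.9%, 31.2%, 33% and 34.7%. Sesn2, a leucine-sensing inhibitor of mTORC1, was higher in WT co-culture by 1.56 ± 0.05 and lower with the inhibitor by 0.79 ± 0.05. Mknk1, a kinase of eIF4E, was higher by 1.43 ± 0.05 and then lower by 0.62 ± 0.05, and its paralog Mknk2 went the other way (-0.40 ± 0.05 and 0.76 ± 0.05). Ddit4, an inhibitor of mTORC1, was lower in WT co-culture (-0.89 ± 0.11) and higher with the inhibitor (1.94 ± 0.11, adjusted p = 6.67e-10). Deptor, another inhibitor of mTORC1, was higher with the inhibitor by 1.44 ± 0.05, whereas Akt1s1 was lower by 0.94 ± 0.08 and Pdcd4, which blocks eIF4A, by 0.65 ± 0.04. The interaction of genotype and inhibitor passed for 1 of the 18 genes and for 0.816% of all genes.

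Eif5 and Eif6 moved in opposite directions. Eif5, which makes eIF2 hydrolyse its GTP, measured 54.7, 59.9 and 58.4 FPKM in monoculture, 100.4, 79.9 and 85.7 in WT co-culture and 81.8, 72.6 and 81.6 in KO co-culture, and 49.9 to 52.2 and 46.1 to 50.8 with the inhibitor. It rose by 0.61 ± 0.07 (0.51 without replicate 1 of WT co-culture) and 0.44 ± 0.07, and fell with the inhibitor by 0.78 ± 0.07 and 0.70 ± 0.07 (adjusted p = 2.31e-07 and 3.31e-07). Eif6, which keeps the large ribosomal subunit from joining too early, went the other way. It measured 95.6, 85.8 and 87.3 FPKM in monoculture, 56.4, 67.6 and 61.4 in WT and 57.8, 61.0 and 59.5 in KO co-culture, and 100.3, 103.2 and 89.7 and then 95.75, 98.72, 96.31 and 91.04 with the inhibitor. The falls were 0.53 ± 0.07 and 0.58 ± 0.07 and the rises 0.65 ± 0.07 and 0.67 ± 0.06 (adjusted p = 6.13e-07 and 1.87e-07). Per 100 FPKM of Eif5 there were 143.3 to 174.7 FPKM of Eif6 in monoculture, 56.2 to 84.6 in the 6 co-cultures without the inhibitor and 175 to 208.9 in the 7 with it.

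Eif5a and its paralog Eif5a2, which help ribosomes through poorly reacting peptide bonds, did not pass in co-culture (-0.04 ± 0.06 and -0.12 ± 0.06 for Eif5a, -0.05 ± 0.10 and -0.12 ± 0.10 for Eif5a2). With the inhibitor Eif5a fell from 324.4, 388.5 and 376.4 to 249.2, 268.6 and 246.1 FPKM in WT co-culture (-0.51 ± 0.06) and by 0.52 ± 0.06 in KO co-culture. Eif5a2 fell from 2.495, 2.298 and 2.06 to 0.362, 0.3547 and 0.5412 FPKM in WT co-culture and from 2.332, 1.781 and 2.313 to 0.4819, 0.279, 0.5386 and 0.3234 FPKM in KO co-culture. These were the largest falls among the 58 genes, at -1.21 ± 0.10 (adjusted p = 8.03e-08) and -1.16 ± 0.09 (adjusted p = 5.42e-08), and -2.41 and -2.35 with a pseudocount of 0.1. The means of Eif5a2 with the inhibitor (0.42 and 0.41 FPKM) lay under the filter of 1 FPKM. It was tested only because of its higher values in the other groups, so its rank and p-values are partly set by that filter. Eif5b, which joins the subunits, was lower in WT co-culture by 0.11 ± 0.04 (a call lost under all 4 other scalings) and did not pass in the other 3 comparisons (-0.08 to 0.09). Of 9 tested enzymes that make hypusine on eIF5A or diphthamide on eEF2, 6 were higher and none lower in each co-culture. All genes stood at 30.1% higher and 31.9% lower in WT and 30.3% and 31.2% in KO co-culture. With the inhibitor 6 were lower in WT co-culture and none higher, and 6 were lower and 1 (Dph2) higher in KO co-culture. There 33% of all genes were lower and 33.5% higher in WT, and 34.7% and 34.8% in KO co-culture. Dhps, the first hypusine enzyme, rose by 0.20 ± 0.05 and 0.30 ± 0.05 and fell with the inhibitor by 0.39 ± 0.05 and 0.53 ± 0.04. Dph1, of the first diphthamide step, rose by 0.78 ± 0.14 and 0.74 ± 0.14 and fell by 0.76 ± 0.14 and 0.67 ± 0.13.

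Other genes of translation gave fewer or mixed calls, beside 30.1% of all genes higher and 31.9% lower in WT co-culture. With the inhibitor there these shares were 33.5% and 33%. Of 10 mitochondrial translation factors 1 was higher and none lower in WT co-culture, and 1 was higher and 2 lower with the inhibitor in WT co-culture. Of the 9 tested genes of termination, recycling and ribosome rescue, 2 were higher and 3 lower in WT co-culture, with Gtpbp2, a rescue GTPase, highest (0.76 ± 0.08) and Gspt1, the release factor eRF3, lowest (-0.35 ± 0.04). With the inhibitor there, 3 of the 9 were higher and 4 lower. Of 10 other initiation partners 5 were higher and 4 lower in WT co-culture, and 2 were higher and 5 lower with the inhibitor there. The 5 higher in co-culture included the poly(A)-binding protein genes Pabpc1 (0.21 ± 0.05) and Pabpc4 (0.47 ± 0.06).

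Few differences passed between the genotypes of the cancer cells. Between KO and WT co-culture, Eif2b2 alone passed (1.65% of all genes were higher and 1.34% lower), 5 of the 58 genes had an unadjusted p under 0.05, and log2 differences ran from -0.27 to 0.15. For Eef1a1 the difference was -0.06 (95% confidence interval -0.15 to 0.03), for Eef2 -0.06 (-0.13 to 0.02), and for Eif4ebp1 0.00089 (-0.31 to 0.31). With the inhibitor, limma called none of the 58 genes between KO and WT co-culture, where 2.31% of all genes were called, 1.66% higher and 0.649% lower. There 2 genes had an unadjusted p under 0.05, and limma voom on recovered fragments called none either. The test of whether the inhibitor acted differently in KO than in WT co-culture called none of the 58 and 0.816% of all genes (0.535% higher and 0.281% lower), with 2 genes at an unadjusted p under 0.05 and none by voom. Libraries of KO co-culture lay wholly above those of WT co-culture for 2 genes and wholly below for 3, where 15.7% of all genes did not overlap, and with the inhibitor for 0 and 7, where 14.6% did not. A p that misses the threshold does not show that the groups were alike.

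The balance of rises and falls with the inhibitor depended on how libraries were scaled. The FPKM of all genes summed to 301949 to 315632 per library with the inhibitor and to 334218 to 349599 without it. Rescaling each library to the same sum (TPM scale) raised the median over all genes by 0.15 in both inhibitor comparisons, and the factor genes then counted 21 higher and 15 lower in WT co-culture, against 13 and 26, and 17 higher and 16 lower in KO co-culture, against 11 and 29. For WT and KO co-culture with the inhibitor against monoculture it raised the median by 0.14 and gave 26 higher and 19 lower, and 24 higher and 20 lower. Scaling without mitochondrial genes and the 50 most abundant genes gave 23 and 21, and 19 and 23, and quantile normalization gave 20 and 18, and 19 and 21, in those 2 comparisons. In WT co-culture against monoculture the latter 2 scalings gave 28 higher and 12 lower and 26 higher and 12 lower, against 24 and 17. Under all 4 other scalings, 12 genes remained lower and 9 higher with the inhibitor in both co-cultures, all past the threshold. The lower were Eef1b2, Eef1e1, Eef1g, Eif1, Eif1ad, Eif3f, Eif3h, Eif4a3, Eif4enif1, Eif5, Eif5a and Eif5a2, and the higher were Eef2k, Eef2kmt, Eif2b2, Eif2b4, Eif2s3x, Eif4a2, Eif4g1, Eif4g3 and Eif6. Eef1a1 and Eef2 did not pass under quantile normalization, which cannot decide a change at the top of the range. Eif5a2 passed the filter only through the groups without the inhibitor. Exons of Eif2b4 overlap those of Snx17, which rose with the inhibitor too.

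**Figure D5:**
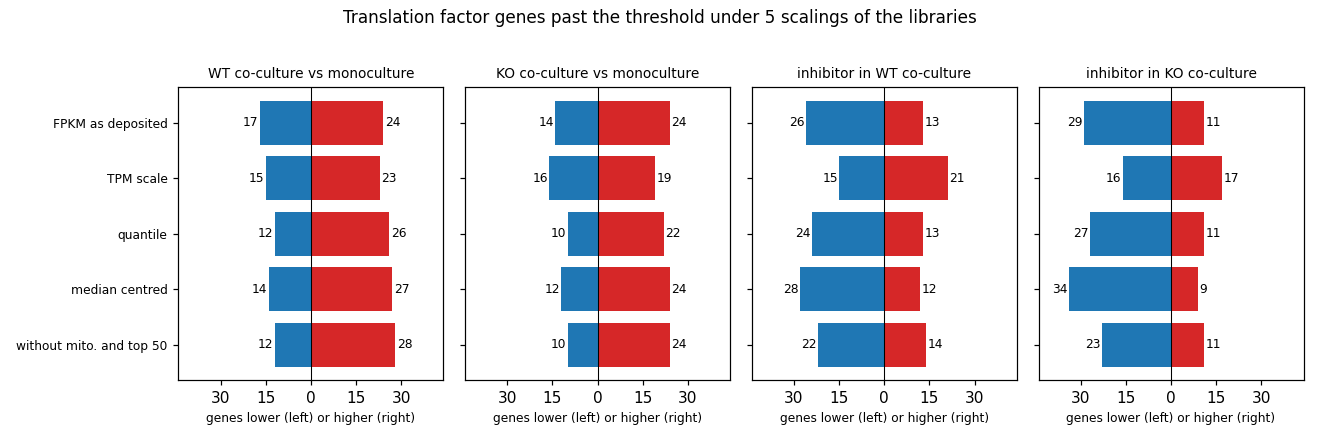
Number of the 58 factor genes past the threshold, lower (left, blue) and higher (right, red), under 5 scalings of the libraries, one panel per comparison. With the inhibitor in WT co-culture 26 were lower and 13 higher on the deposited scale, and 15 lower and 21 higher on the TPM scale.

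The promoters of the factor genes were read for 2 patterns on both strands, the E-box CACGTG, bound by factors of the MYC and TFE families, and TTGCATC, the core of an element bound by ATF4. RefSeq windows from 250 bases before to 50 after the start (GRCm38.p6) were found for 48 of the 64 genes, 62 windows in all. The E-box was present in 15 of the 62 (24.2%), in 13 genes, and in 7.15% of the 32851 windows of the table. TTGCATC was in none of the 62 and in 2.53% of the table, a share at which its absence from 62 windows says little. The genes without a window, whose promoters were not read, include Eif4ebp1, Eif2b3, Eif6 and Eef1g. Such matches describe letters and not binding. Among the 13 genes were Eef2 and Eif3f, which fell with the inhibitor (Eef2 not under quantile normalization), and Eef2k and Eif4g1, which rose, so the 70 bases before their starts are printed with the E-box in capitals. These lie on the plus strand at chr10:81176561-81176630 (Eef2), chr7:108934345-108934414 (Eif3f), chr7:120842761-120842830 (Eef2k) and chr16:20672657-20672726 (Eif4g1).
Eef2: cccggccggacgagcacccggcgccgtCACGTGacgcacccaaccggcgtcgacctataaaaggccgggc
Eif3f: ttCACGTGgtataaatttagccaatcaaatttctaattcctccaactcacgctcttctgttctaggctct
Eef2k: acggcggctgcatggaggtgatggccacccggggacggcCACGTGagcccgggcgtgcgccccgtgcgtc
Eif4g1: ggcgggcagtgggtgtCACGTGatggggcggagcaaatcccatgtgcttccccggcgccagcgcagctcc
The E-box began 43 bases before the start in Eef2, 68 in Eif3f, 31 in Eef2k and 54 in Eif4g1. The pattern was thus present in genes that moved in opposite directions.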

How the data were processed

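Libraries were grouped by their labels, and the genes and lists were chosen with earlier results of these data known. RNA came from an RNeasy mini kit and libraries from Novogene's protocols, per the labels' protocols. HISAT2 and the builds GRCm38 and mm10 are named in the submitters' processing notes. Counter, annotation and strandedness were not given in the sources used here. FPKM values, given by the authors per gene and library, were used as deposited. FPKM times gene length gave whole multiples of 1 step per library (100% of values within 0.1 of a whole number), so fragments were recovered, at 15 to 21.27 M per library. The value of 1 fragment covers counting error only, and standard errors come from the spread among libraries. Genes with a mean of at least 1 FPKM over 16 libraries (11395) were tested as log2(FPKM + 1) with limma 3.58.1 in R 4.3.3. The model had 1 mean per group, 11 residual degrees of freedom and a variance trend by intensity. Each test was two-sided. Its p was adjusted by Benjamini-Hochberg over the 11395 genes within each of 9 comparisons, which share libraries. The script was tested on simulated data. Named genes were those listed by role plus the 5 largest called changes each way per comparison, and other members were named after their values were seen. Near-identical transcripts were found with blastn 2.17.0 in GENCODE M21. The alternatives were 4 scalings, a pseudocount of 0.1, other filters, no trend, only the groups compared, a replicate term, leaving out each library, and voom.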

Additional observations from a re-analysis of the deposited data

Results flagged for a closer look

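In the 1 group of 4 libraries, KO co-culture with the inhibitor, 5 of the 58 tested genes had a library whose gap to its nearest neighbour was, as a share of the group's range, above the Dixon critical value at 95% (shares of 0.844 to 0.943). Chance gives about 1 in 20, and all 5 were replicate 4. Eef1a1 was at 5847 FPKM there and at 5713 to 5724 in the others. Eif3f was at 235.7 FPKM there against 246.3 to 248.3. Eif4g2 was at 179.8 FPKM against 167.2 to 168. Eif2s2 was at 37.69 FPKM against 32.84 to 33.42. Eef1akmt1 was at 10.11 FPKM against 12.55 to 12.96.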

How the results depend on the processing

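The number of genes called stayed within 1.5 times the main count under every alternative run in the 6 comparisons with 38 to 41 calls. Leaving out 1 library gave 37 to 40 genes in WT co-culture, 31 to 35 in KO co-culture, 35 to 40 and 36 to 40 with the inhibitor in WT and KO co-culture, and 34 to 38 and 35 to 39 for these against monoculture. Between KO and WT co-culture the 1 call became 0 with no filter on low values, no intensity trend, only the groups compared, the replicate block and voom, and 0 to 1 on leaving out a library. Same-numbered libraries deviated with correlations of -0.300 to 0.270 (median 0.0104, 30 pairs), and differently numbered ones with -0.399 to 0.334 (median -0.00371, 72 pairs). With so few libraries per group these values cannot decide whether the numbers pair libraries, and the labels state no pairing. The replicate block changed no other count by over 1.5 times. The comparisons with no call stayed at 0 throughout. Calls kept under every alternative were 27 of 41, 23 of 38, 23 of 39 and 23 of 40 in the 4 main comparisons. Quantile normalization turned Eif3a (0.055) and Eif3b (0.038) in WT and Eif3a (0.064) in KO co-culture, and Eef2 with the inhibitor (0.0084 in WT, 0.041 in KO). The TPM scale turned Eif3k (0.044), Eef1d (0.0034), Eif2s1 (0.01002) and Eif2b1 (0.022) with the inhibitor in WT, and Eif3a (0.042), Eif3m (0.021), Eif3k (0.007004), Eif4h (0.014) and Eif2b1 (0.0017) in KO co-culture. None of these passed the threshold after the turn, and the cause was not tested. Against monoculture, quantile normalization turned Eef2 in WT (0.12) and KO co-culture with the inhibitor (0.18, adjusted p = 0.0159, past the threshold) and brought Eef1a1 in the former to 0, and the TPM scale turned Eif2b1 there (0.022). The edgeR test listed as an alternative was not run, because the values are FPKM, and voom was chosen after seeing the data. Inhibitor differences under about 0.15 on the log2 scale, the shift from the deposited to the TPM scale, cannot be given a direction here. A larger difference is not thereby settled. That of Eef2 (-0.80 in WT and -0.75 in KO co-culture) turned under quantile normalization. That scaling sets values by rank and cannot decide a change at the top of the range, where Eef2 lies.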
